A study of Mus musculus with 36 samples.

Results

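Accessible chromatin around 5 transcription factor genes, Erg, Fli1, Tal1, Lyl1 and Lmo2, was followed through 36 ATAC-seq libraries of mouse hematopoietic stem and progenitor cells. The peaks of all libraries were merged wherever they overlapped by 1 bp or more, which gave 105005 regions, and a region was assigned to the gene whose protein-coding transcription start site (TSS) lay nearest to its centre. By this rule 108 regions belonged to the 5 genes: 33 to Erg, 33 to Fli1, 9 to Tal1, 4 to Lyl1 and 29 to Lmo2. A region carries the name of its gene and the distance of its centre from the nearest start site of that gene, with a minus sign for upstream, so that Erg +6.6 kb lies downstream of a start site of Erg. Assignment by distance says nothing of which gene a region acts on.

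ERG and FLI1 are ETS factors, which bind DNA around a GGAA core. TAL1 and its close relative LYL1 are basic helix-loop-helix proteins, which pair with E proteins such as E2A and bind E-boxes, and LMO2 is a LIM-only protein with no DNA contact of its own that, with LDB1, bridges them to GATA factors. Together with GATA2 and RUNX1 these proteins occupy shared enhancers in blood stem and progenitor cells, their own genes among them.

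The study asked how chromatin accessibility changes with age in stem cells and along their differentiation. Bone marrow cells of C57BL/6 mice, 10 weeks (young) or 20 months (aged) old, were sorted by surface markers, and nuclei of 20000 cells entered each transposase reaction. Hematopoietic stem cells (HSCs), lineage-negative Sca-1+ c-kit+ cells without CD34, CD48 and Flt3 and with CD150, gave 8 libraries, 4 from each age. The other 7 fractions gave 4 libraries each, 2 from each age: the multipotent progenitors (MPPs), which all carried CD34 in addition to Sca-1 and c-kit and were divided into MPP1 (CD150+ CD48-), MPP2 (CD150+ CD48+), MPP3 (CD150- CD48+) and MPP4 (CD150- CD48+ Flt3+), the granulocyte-macrophage progenitors (GMPs, c-kit+, Sca-1-, FcgR+ and CD34+), the megakaryocyte-erythrocyte progenitors (MEPs, c-kit+, Sca-1-, FcgR- and CD34-) and the common lymphoid progenitors (CLPs, stained for the IL-7 receptor, which the labels write as IL-7+, with low Sca-1 and c-kit). The study describes marrow that was pooled before a sort in duplicate, and calls the HSC libraries of an age biological replicates. The labels do not tie the libraries to separate animals, so p-values measure the spread between these libraries, which may be technical in part. A fraction is what its gate admits, and fewer open cells in a fraction cannot be told apart from less accessibility in every cell.

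Each library is a list of peaks, and its length limits what can be found. The lists held 27856 to 38756 peaks in HSCs, 27087 to 40157 in the MPPs, 52576 to 63288 in GMPs, 9581 to 11041 in MEPs and 27117 to 34205 in CLPs. The smallest peak was 132 to 139 bp wide in GMPs and 163 to 191 bp in the other fractions. Pairs of HSC libraries matched in both age and replicate set (numbers 1 and 2, or 3 and 4) shared 67.9% to 70.3% of their called regions and all other HSC pairs 59.9% to 67.2%, so that the libraries group by set within each age, and results in HSCs are also given by set where they change. At the TSS of marker genes, Mpo and Elane were called in all 4 GMP libraries and Cebpe in 3, with 1 further call of Mpo in MPP3, and Il7r was called in all CLP, MPP4 and GMP libraries. The MEP label was not borne out by its markers, as Gata1 was called in 4 GMP and 0 MEP libraries and Epor in 4 MEP libraries and in all others but 1 of CLPs. The region nearest to Klf1, 1392 bp from its TSS, was called in 1 MEP library and in every library of the other fractions. The HSC markers were called in other fractions as well. Hlf was called in all 8 HSC libraries but also in every MPP, GMP and CLP library, Mecom in 0 HSC libraries and in 1 MPP2, 2 MPP3, 3 MPP4, 3 GMP and 2 CLP libraries, and Procr in 4 of 8 HSC, 2 MPP3 and 3 GMP libraries. Of the other CLP markers, Ebf1 was called at its TSS in every HSC library and in 3 CLP libraries, as was a region 1876 bp from the TSS of Dntt.

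The regions on which the results below turn are shown here by their sequence, read from GRCm38.p6 (RefSeq), the same build as mm10, on the plus strand and 200 bases around the median summit of the peaks. They are the Erg -59 bp region at chr16:95459393-95459592, which was called in every HSC library and in no GMP, MEP or CLP library, the Erg +6.6 kb region at chr16:95452526-95452725, the most enriched Erg region of HSCs, the strongest Fli1 region, Fli1 -13.6 kb at chr9:32556381-32556580, Fli1 -39.4 kb at chr9:32582163-32582362, which differed between HSCs and both MPP2 and MPP3, Tal1 -3.7 kb at chr4:115052709-115052908, Lyl1 -1.4 kb at chr8:84699982-84700181, Lmo2 -64.0 kb at chr2:103893840-103894039, which was called in every MEP library, and Lmo2 -12.0 kb at chr2:103945890-103946089. Capitals mark the letters of 4 motifs on either strand. These are the ETS core GGAA followed by G, GGAAG, the core of GATA sites, GATAA, the E-box, CANNTG, and the core of RUNX sites, TGTGGT. Where an E-box end and a GATA core make a composite, its CTG is in capitals too.
Erg -59 bp: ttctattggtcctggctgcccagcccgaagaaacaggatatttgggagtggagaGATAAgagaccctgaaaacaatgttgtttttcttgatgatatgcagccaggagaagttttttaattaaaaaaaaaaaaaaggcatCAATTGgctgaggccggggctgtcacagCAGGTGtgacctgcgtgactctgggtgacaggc
Erg +6.6 kb: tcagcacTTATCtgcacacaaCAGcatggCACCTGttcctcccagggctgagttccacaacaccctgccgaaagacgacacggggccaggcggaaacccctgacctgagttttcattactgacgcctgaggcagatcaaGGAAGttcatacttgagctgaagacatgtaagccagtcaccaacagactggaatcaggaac
Fli1 -13.6 kb: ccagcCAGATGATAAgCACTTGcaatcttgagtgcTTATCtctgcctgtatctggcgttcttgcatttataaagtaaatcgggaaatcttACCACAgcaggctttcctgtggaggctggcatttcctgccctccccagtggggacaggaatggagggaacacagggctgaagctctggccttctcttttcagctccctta
Fli1 -39.4 kb: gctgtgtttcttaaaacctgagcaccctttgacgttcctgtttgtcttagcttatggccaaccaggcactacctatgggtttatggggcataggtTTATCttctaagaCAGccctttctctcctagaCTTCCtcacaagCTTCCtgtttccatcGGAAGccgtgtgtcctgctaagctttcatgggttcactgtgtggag
Tal1 -3.7 kb: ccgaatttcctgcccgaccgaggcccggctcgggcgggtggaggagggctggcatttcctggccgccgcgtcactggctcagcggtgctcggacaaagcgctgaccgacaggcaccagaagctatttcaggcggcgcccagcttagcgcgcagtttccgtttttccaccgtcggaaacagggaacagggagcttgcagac
Lyl1 -1.4 kb: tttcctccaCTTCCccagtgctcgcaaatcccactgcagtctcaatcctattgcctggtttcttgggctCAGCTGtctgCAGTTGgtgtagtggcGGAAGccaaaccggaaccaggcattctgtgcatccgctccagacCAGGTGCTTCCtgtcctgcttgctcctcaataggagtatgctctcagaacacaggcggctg
Lmo2 -64.0 kb: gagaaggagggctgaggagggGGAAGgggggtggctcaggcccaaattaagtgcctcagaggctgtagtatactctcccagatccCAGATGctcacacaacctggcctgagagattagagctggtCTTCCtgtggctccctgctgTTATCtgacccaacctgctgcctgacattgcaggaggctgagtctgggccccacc
Lmo2 -12.0 kb: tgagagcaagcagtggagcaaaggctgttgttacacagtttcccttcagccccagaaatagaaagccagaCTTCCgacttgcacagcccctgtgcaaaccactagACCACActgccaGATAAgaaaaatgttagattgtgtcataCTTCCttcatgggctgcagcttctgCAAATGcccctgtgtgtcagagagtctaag

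These letters were counted in the same window of 200 bases in all 104825 catalogue regions on the 21 chromosomes compared. GGAAG was present in 65.7% of the 108 regions and in 69.1% of all regions, CANNTG in 67.6% against 64.5%, TGTGGT in 24.1% against 25.6% and GATAA in 24.1% against 21.2%. Of the 13 regions called in all 8 HSC libraries, 8 held GATAA (61.5%), which was present in 16.2% of the 17295 regions of the catalogue called in all 8. The shares of the other letters in the 13 were 69.2% for GGAAG (68.5% in those regions), 69.2% for CANNTG (54.2%) and 15.4% for TGTGGT (18.8%). The composite, CTG followed after 7 or 8 bases by AGATAA or TGATAA, was in 3 of the 13 (23.1%), namely Erg +6.6 kb, Fli1 -39.4 kb and Lyl1 +88 bp, against 2.15% of those regions. Of the 32 regions called in GMPs alone, 2 held GATAA (6.25%), against 18.8% of the 25291 regions of that kind, and 0 held the composite (0.534%), while GGAAG was in 68.8% (73.4%), CANNTG in 71.9% (66.9%) and TGTGGT in 18.8% (26.8%). These are matches of letters, some of which overlap, and not sites shown to be bound. The window of Tal1 -3.7 kb holds none of them, but it does hold the shorter ETS core GGAA, which was not counted.

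Most of the 108 regions lay outside promoters, as did most of the catalogue. Introns held 58 of the 108 (53.7%, compared with 40.5% of the catalogue) and intergenic sequence 38 (35.2% against 41%). Promoters (1000 bp upstream to 100 bp downstream of a start) held 7 (6.48% against 13.3%), coding exons 3 and untranslated exons 2. A single region (0.926%, compared with 5.08% of the catalogue), Tal1 +504 bp at the Tal1 promoter, was called in all 36 libraries. Of the regions, 16 (14.8%) were called in 1 library, compared with 18.4% of the catalogue. At least 1 HSC library called 42 of the regions (38.9%, compared with 49.2% of the catalogue), at least 1 GMP library 75 (69.4% against 69.8%), at least 1 CLP library 35 (32.4% against 39.5%) and at least 1 MEP library 9 (8.33% against 13.3%). All 8 HSC libraries called 13 regions (12%, compared with 16.5% of the catalogue), and all 24 HSC and MPP libraries called 8 (7.41% against 12.8%). GMPs alone held 32 regions (29.6% against 24.1%), HSCs and MPPs alone 18 (16.7% against 21%), CLPs alone 6 (5.56% against 3.17%) and MEPs alone 3 (2.78% against 1.69%).

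**Figure D1:**
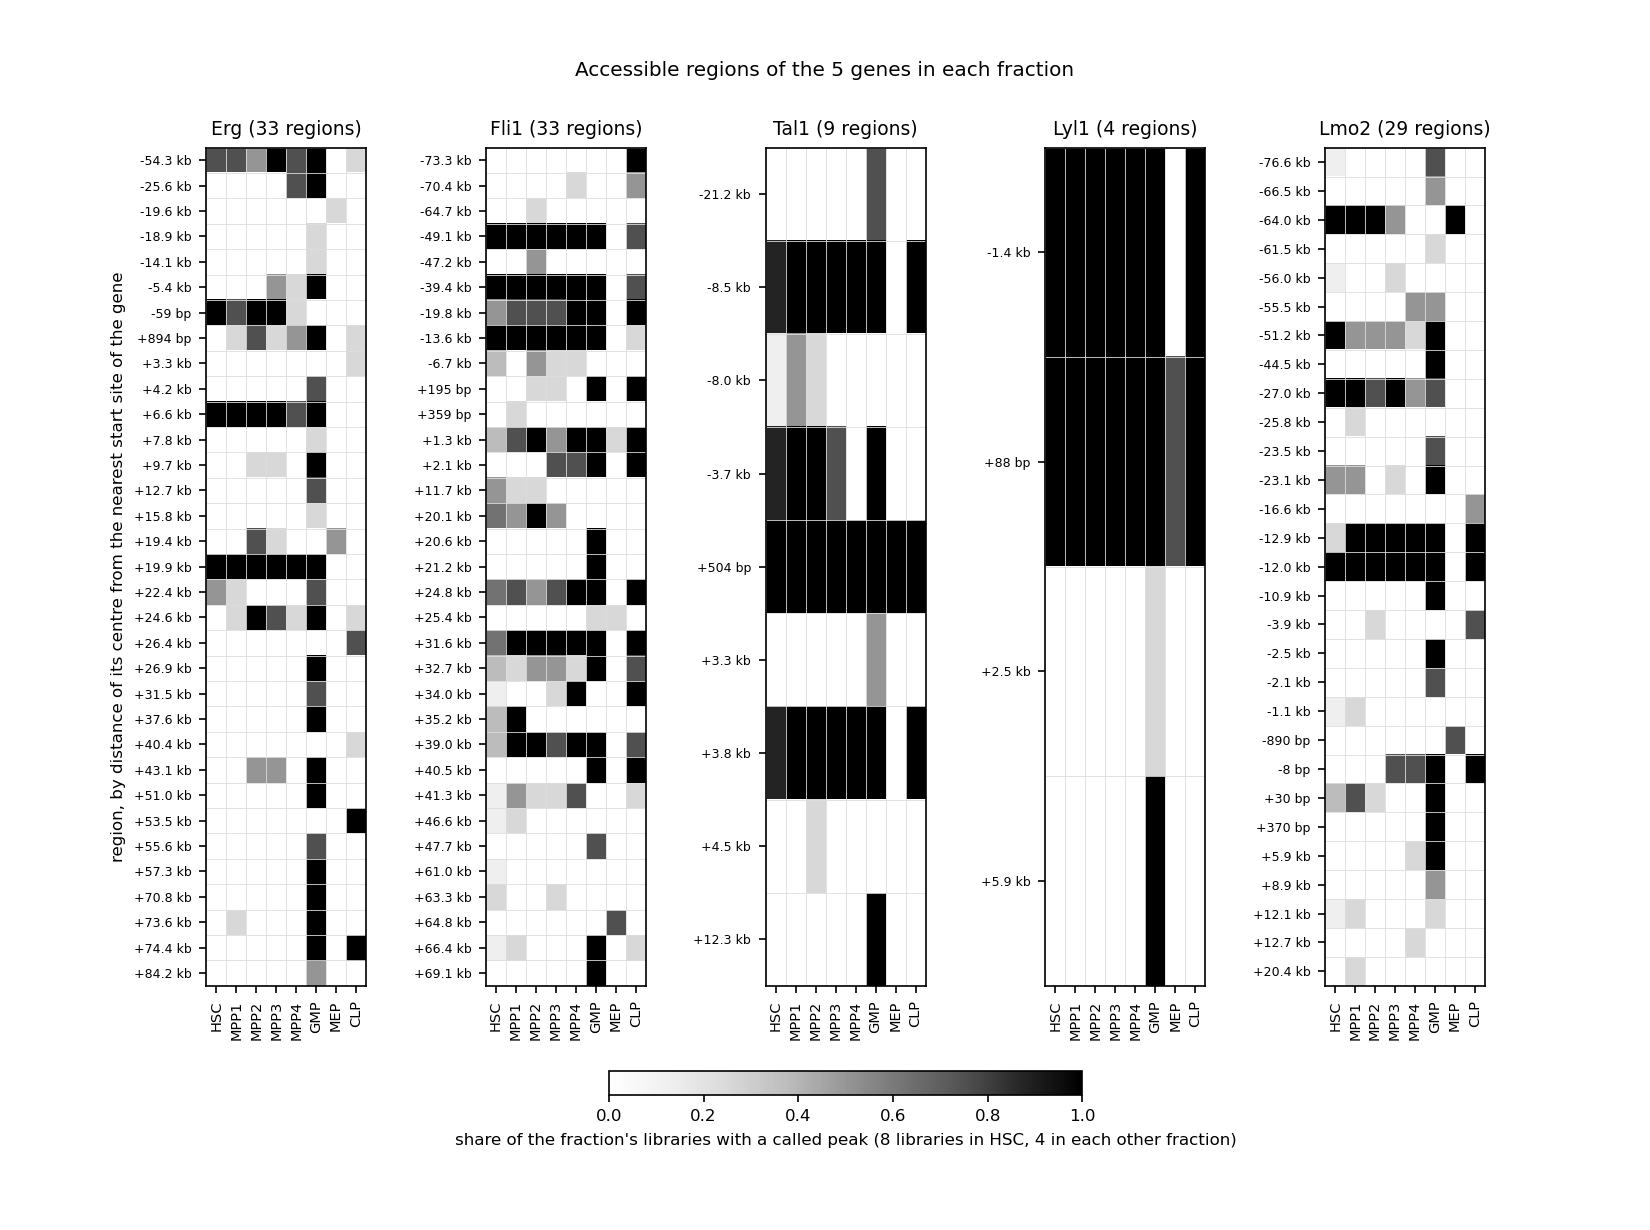
Each row is 1 of the 108 regions, ordered within its gene by the distance of its centre from the nearest start site (kb or bp), and each column is a fraction. The grey level is the share of the fraction's libraries with a called peak (8 in HSC, 4 in each other fraction). Dark rows that cross most columns are few, the GMP column is dark at many rows that are white elsewhere, and the MEP column is nearly empty.

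The number of regions called per library gave the level of each gene. HSC libraries called 24.3 ± 3.81 of the 108 regions (SD, n = 8), MPP1 28.3 ± 4.35, MPP2 28.8 ± 4.11, MPP3 27.3 ± 5.62, MPP4 25.3 ± 3.78, CLP 26.5 ± 3.11, GMP 63.8 ± 2.99 and MEP 5.5 ± 2.38 (each SD, n = 4). GMP libraries, with the longest peak lists, stood above every other library and MEP libraries, with the shortest, below, while HSCs, the MPPs and CLPs overlapped. Relative to 10000 called regions of the library, the number was 11.1 ± 0.613 in GMPs, 8.7 ± 0.427 in CLPs, 7.8 ± 0.645 in HSCs and 5.54 ± 2.3 in MEPs, so that the SD of MEPs spans the mean of HSCs. MPP libraries ran from 6.5 (aged MPP4 replicate 1) to 9.8 (young MPP3 replicate 2) and overlapped HSCs and CLPs. On this scale GMPs were above HSCs at Erg (3.7 ± 0.337 against 1.38 ± 0.219) and at Lmo2 (2.79 ± 0.251 against 1.83 ± 0.466), and close to them at Fli1 (2.96 ± 0.167 against 2.73 ± 0.726). GMPs were below HSCs at Tal1 (1.09 ± 0.159 against 1.21 ± 0.2) by less than the spread. At Lyl1 they were below (0.565 ± 0.0688 against 0.652 ± 0.0669) by more than either SD, though single libraries overlapped. Fli1 reached its highest value in CLPs (4.35 ± 0.628). These means were not tested. When every library kept its 9581 strongest peaks, HSCs called 6.25 ± 1.28 of the regions, GMPs 7.75 ± 1.71, MEPs 5 ± 2.16 and CLPs 2.75 ± 0.957. The mean of MEPs then lay within the SD of HSCs and above the mean of CLPs, but the SDs of MEPs and CLPs overlapped.

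**Figure D2:**
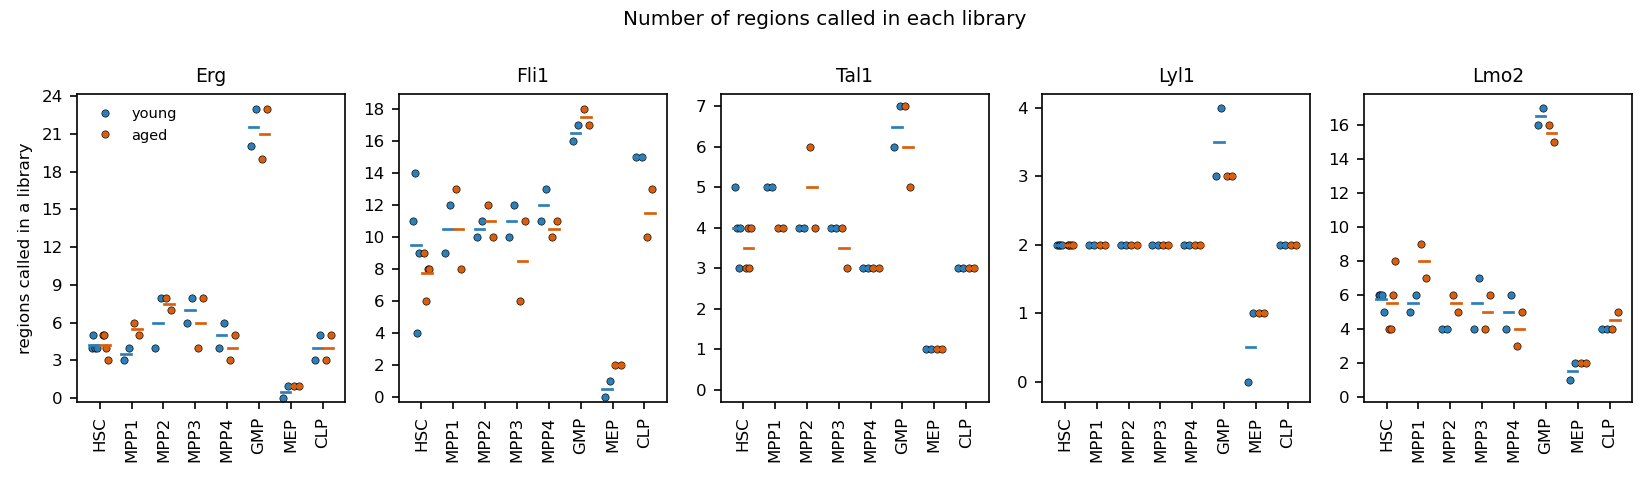
Points give the number of regions of a gene called in each library of the 8 fractions, and bars the mean of each age (blue, young; orange, aged). GMP libraries called 19 to 23 Erg regions and 15 to 17 Lmo2 regions, above all other libraries, and the 2 ages overlap in HSCs for every gene.

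Erg, an ETS factor required to maintain adult stem cells, had 33 regions over chr16:95359169-95586593 (minus strand) and its flanks, 28 of them in introns. Libraries of GMPs called 21.3 ± 2.06 of them, MPP2 6.75 ± 1.89, MPP3 6.5 ± 1.92, MPP1 and MPP4 4.5 ± 1.29, HSCs 4.25 ± 0.707, CLPs 4 ± 1.15 and MEPs 0.75 ± 0.5 (SD, n = 8 for HSCs and 4 for the others). All fractions between GMPs and MEPs overlapped in this order. At least 1 HSC library called 5 of the Erg regions (15.2%, compared with 49.2% of the catalogue), and all 8 called 3 of them (9.09% against 16.5%).

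Those 3 were Erg +6.6 kb, Erg -59 bp and Erg +19.9 kb. At Erg +6.6 kb (intronic, chr16:95452380-95452823) the highest fold enrichment of the peaks was 8.99 at the lowest, 12.8 at the median and 14.6 at the highest of the 8 HSC libraries, and it was 6.18 and 8.42 in young GMPs and 10.3 and 9.6 in aged GMPs. The region was called in 3 of 4 MPP4 libraries, at 5.62 to 7.18, and in 0 of 4 MEP and 0 of 4 CLP libraries. MPP4 values lay below all HSC values, and GMP values overlapped them.

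Erg -59 bp (chr16:95459164-95459650) covers a start site inside the gene. It was called in all HSC libraries, at 7.19, 11, 9.49 and 11.9 in young and 10.3, 5.8, 8.99 and 10.2 in aged HSCs, in 3 of 4 MPP1, in all MPP2 and MPP3 libraries and in 1 of 4 MPP4 libraries, and in none of the 12 GMP, MEP and CLP libraries. Erg +19.9 kb (chr16:95439163-95439541) was called in every HSC, MPP and GMP library and in no MEP or CLP library.

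GMPs called many Erg regions that HSCs did not. Erg -5.4 kb (intronic, chr16:95464559-95464999) was called in 0 of 8 HSC libraries and in all 4 GMP libraries, at 28.6 and 25.3 in young and 24.2 and 28.9 in aged cells, and also in 2 MPP3 libraries, at 15.8 and 12.9, and 1 MPP4 library, at 7.61. Erg -54.3 kb (intergenic, chr16:95640711-95641072) was called in 6 of 8 HSC libraries, at 6.95 to 8.95, and in all 4 GMP libraries, at 23.2 to 29.4, the GMP values lying above all others. Erg +894 bp, next to the most distal start site, was called in 0 HSC libraries, all 4 GMP libraries, 7 MPP libraries and 1 CLP library. Of the regions found in GMPs alone, 14 belonged to Erg (42.4% of its regions, compared with 24.1% of the catalogue), and Erg +70.8 kb, +57.3 kb, +51.0 kb, +37.6 kb and +26.9 kb were called in all 4 GMP libraries.

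CLPs had 4 Erg regions of their own (12.1% of the Erg regions, compared with 3.17% of the catalogue). Erg +53.5 kb (chr16:95405524-95405906) was called in all 4 CLP libraries, at 6.35 and 11.8 in young and 6.79 and 11.1 in aged cells, and in no other library. Erg +26.4 kb was called in 3 CLP libraries, and Erg +40.4 kb and Erg +3.3 kb in 1. Erg +74.4 kb was shared by CLPs, at 7.01 to 9.72, and GMPs, at 6.02 to 7.82, and was called nowhere else. Erg -19.6 kb was called in 1 MEP library alone.

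Fli1, the ETS factor closest to Erg and also known from megakaryocytes, had 33 regions over chr9:32422204-32542861 (minus strand) and upstream. Start sites of all genes, in place of protein-coding ones, gave 7 regions to Fli1. Its level differed less between fractions than that of Erg: GMP libraries called 17 ± 0.816 regions, CLP 13.3 ± 2.36, MPP4 11.3 ± 1.26, MPP2 10.8 ± 0.957, MPP1 10.5 ± 2.38, MPP3 9.75 ± 2.63, HSC 8.63 ± 3.02 and MEP 1.25 ± 0.957 (SD, n = 8 for HSCs and 4 for the others). GMPs and MEPs lay outside the range of the rest, while each of the neighbours from CLPs to HSCs overlapped. Fli1 held 10 of the 18 regions called in HSCs and MPPs alone (30.3% of its regions, compared with 21% of the catalogue). Among HSC libraries the number ranged from 4 to 14, the widest range of the 5 genes.

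The strongest Fli1 regions of HSCs lay upstream of the gene, in intergenic sequence. Fli1 -13.6 kb (chr9:32556180-32556691) was called in every HSC, MPP and GMP library and in 1 CLP library, and its fold enrichment in HSCs was 12 at the lowest, 15.8 at the median and 18.9 at the highest. In GMPs it was 15.4, 15.2, 20 and 19.4, and in the CLP library 5.93, below all others. Fli1 -49.1 kb (chr9:32591707-32592200) reached a median of 9.33 in HSCs and Fli1 -39.4 kb (chr9:32581898-32582591) one of 6.13, and both were called in every HSC, MPP and GMP library, in 3 of 4 CLP libraries and in no MEP library.

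No HSC library called a peak at the start sites of Fli1. Fli1 +195 bp (chr9:32541213-32541587, in an untranslated exon) was called in 0 of 8 HSC libraries, in all 4 GMP libraries, at 8.06 to 9.8, in all 4 CLP libraries, at 4.88 to 6.56, and in 1 MPP2 and 1 MPP3 library, and Fli1 +359 bp in 1 MPP1 library alone. The intronic Fli1 +2.1 kb had a like pattern, with 0 calls in HSCs, with 13.5 to 16.5 in GMPs, 5.13 to 6.5 in CLPs and calls in 3 MPP3 and 3 MPP4 libraries. Fli1 -73.3 kb (chr9:32615925-32616357) was called in all 4 CLP libraries, at 5.56 to 9.58, and in no other library. In GMPs alone, 4 Fli1 regions were found (12.1% of its regions, compared with 24.1% of the catalogue). Of these, Fli1 +69.1 kb, +21.2 kb and +20.6 kb were called in all 4 GMP libraries, and Fli1 +47.7 kb in 3. Fli1 +64.8 kb was called in 3 MEP, Fli1 -47.2 kb in 2 MPP2, Fli1 -64.7 kb in 1 MPP2 and Fli1 +61.0 kb in 1 HSC library alone.

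Tal1, needed for the onset of blood formation and for erythroid and megakaryocytic cells, had 9 regions around chr4:115056426-115071755 (plus strand). GMP libraries called 6.25 ± 0.957 of them, MPP1 4.5 ± 0.577, MPP2 4.5 ± 1, HSC and MPP3 3.75 (SD 0.707 and 0.5), MPP4 and CLP 3 each with no spread, and MEP 1 in each library. The promoter region Tal1 +504 bp (chr4:115056409-115057452) was the one called in every library, with a fold enrichment of 6.08 to 8.24 in HSCs, 9.68 to 12.6 in GMPs, 5.02 to 7.17 in CLPs and 5.57, 4.33, 4.89 and 4.22 in MEPs. MEP values were below and GMP values above all HSC values on this uncentred scale. It was the only Tal1 region called in MEPs.

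Tal1 -3.7 kb (intergenic, chr4:115052571-115052980) was called from HSCs to GMPs and in no library of MPP4, CLPs or MEPs. Its peaks were found at 8.78, 7.28, 8.19 and 6.5 in young HSCs and at 6.97, 6.41 and 4.77 in 3 of 4 aged HSC libraries, in all MPP1, MPP2 and GMP libraries and in 3 of 4 MPP3 libraries. Tal1 -8.5 kb and Tal1 +3.8 kb, a coding exon, were called in 7 of 8 HSC libraries and in all other libraries except MEPs. At Tal1 -8.5 kb the fold enrichment was 5.58 to 8.27 in HSCs and 16.5 to 18.7 in GMPs, with no overlap. Tal1 +12.3 kb was called in the 4 GMP libraries alone, at 7.71 to 9.48, Tal1 -21.2 kb, in an intron of Stil, in 3 of them, Tal1 +3.3 kb in 2, and Tal1 +4.5 kb in 1 MPP2 library.

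Lyl1, the relative of Tal1, is a short gene (chr8:84701457-84704715, plus strand) and had 4 regions. Every HSC, MPP and CLP library called exactly 2 of them, Lyl1 -1.4 kb (chr8:84699888-84700324) and the promoter region Lyl1 +88 bp (chr8:84701209-84701881), and GMP libraries called 3 or 4. Lyl1 +88 bp was also called in 3 of 4 MEP libraries, at 4.5 to 5.48, where Lyl1 -1.4 kb was not called. The 2 regions differed in opposite directions between HSCs and CLPs, as tested further on: Lyl1 +88 bp had a fold enrichment of 8.07 to 11.7 in HSCs and 5.06 to 5.82 in CLPs, and Lyl1 -1.4 kb had 5.76 to 9.02 in HSCs and 8.23 to 11.1 in CLPs. The groups overlapped at Lyl1 -1.4 kb and not at Lyl1 +88 bp. Lyl1 +5.9 kb, in an untranslated exon of Nfix, was called in the 4 GMP libraries alone, and Lyl1 +2.5 kb in 1 of them.

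Lmo2, the bridging protein, had 29 regions, 20 of them intergenic, around chr2:103957986-103981878 (plus strand). GMP libraries called 16 ± 0.816 of them, MPP1 6.75 ± 1.71, HSC 5.63 ± 1.3, MPP3 5.25 ± 1.5, MPP2 4.75 ± 0.957, MPP4 4.5 ± 1.29, CLP 4.25 ± 0.5 and MEP 1.75 ± 0.5 (SD, n = 8 for HSCs and 4 for the others). All between GMPs and MEPs overlapped with their neighbours. The 4 regions called in all 8 HSC libraries, Lmo2 -64.0 kb, -51.2 kb, -27.0 kb and -12.0 kb, lay upstream of the gene.

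Lmo2 -64.0 kb (chr2:103893717-103894185) was called in every HSC and every MEP library. Its fold enrichment was 10.5, 10.1, 9.77 and 5.35 in young HSCs, 6.55, 9.03, 6.42 and 7.66 in aged HSCs, 8.09 to 12.4 in MPP1, 9.39 to 13.1 in MPP2 and 6.7, 6.45, 6.2 and 5.64 in MEPs, and it was called in 2 of 4 MPP3 libraries and in no MPP4, GMP or CLP library. MEP values lay within the range of HSCs, but without young HSC replicate 4, at 5.35, the lowest HSC value was 6.42 and both aged MEP values were below it. Lmo2 -64.0 kb was 1 of 9 regions of the 5 genes that any MEP library called. Of those, Fli1 +64.8 kb, Lmo2 -890 bp and Erg -19.6 kb were called in MEPs alone, Lmo2 -890 bp in 3 libraries.

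Lmo2 -12.0 kb (chr2:103945661-103946269) was called in every library except those of MEPs. Its fold enrichment was 6.11 at the lowest, 12 at the median and 13.4 at the highest in HSCs, 15.1 to 17.1 in GMPs, 6.01 to 9.38 in MPP4 and 4.39, 5.74, 3.9 and 5.01 in CLPs, all CLP values lying below all HSC values. Lmo2 -27.0 kb (chr2:103930738-103931234), with a median of 9.42 in HSCs, was called in no MEP or CLP library. Lmo2 -8 bp (chr2:103969946-103970485), a promoter, was called in no HSC, MPP1, MPP2 or MEP library, in 3 MPP3 and 3 MPP4 libraries, in all 4 GMP libraries, at 12.1 to 13.9, and in all 4 CLP libraries, at 5.37 to 7.66. Lmo2 +30 bp (chr2:103969338-103969779), another promoter region of the gene, was called in 3 of 8 HSC, 3 of 4 MPP1, 1 MPP2 and all 4 GMP libraries. No MPP3, MPP4, MEP or CLP library called it. In GMPs alone, 9 Lmo2 regions were found (31% of its regions, compared with 24.1% of the catalogue), of which Lmo2 -44.5 kb, -10.9 kb, +370 bp and -2.5 kb were called in all 4 libraries. Lmo2 -16.6 kb was called in 2 CLP libraries alone, Lmo2 -25.8 kb and +20.4 kb in 1 MPP1 library and Lmo2 +12.7 kb in 1 MPP4 library.

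**Figure D3:**
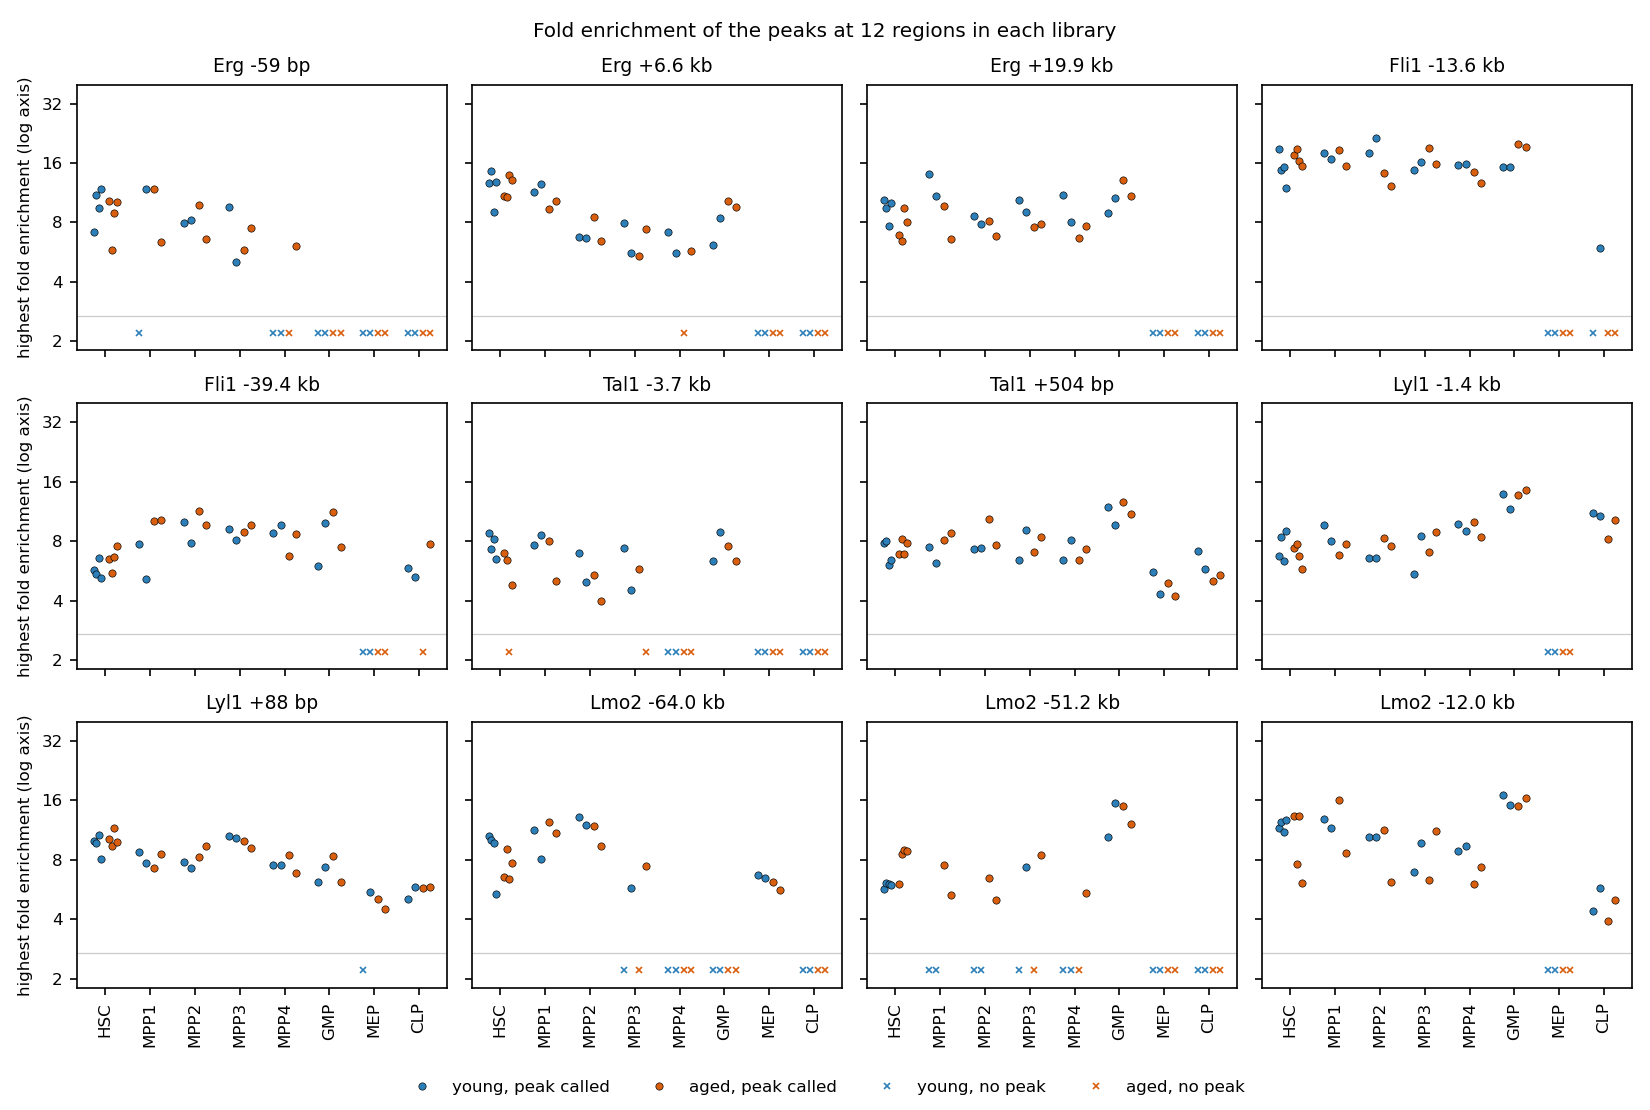
The highest fold enrichment of the peaks at 12 regions is plotted for every library on a log axis, by fraction and age (blue, young; orange, aged), and a cross below the line marks a library with no peak called there. Erg -59 bp and Lmo2 -64.0 kb have crosses in all GMP and CLP libraries, and Lmo2 -12.0 kb falls from 6.11 to 13.4 in HSCs to 3.9 to 5.74 in CLPs.

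The comparison of HSCs with the 3 oligopotent fractions asked which of these regions are called more often on one side. Fisher's exact tests (both sides) of 8 HSC libraries against 4 of the other fraction were adjusted by the Benjamini-Hochberg method over all regions called in at least 1 of the 12 libraries. Against GMPs, 89 of the 108 regions were called in at least 1 library, and 28 of them (31.5%) were called more often in GMPs, while 22.8% of all 91636 regions tested were. By gene these were 13 of Erg, 7 of Fli1, 6 of Lmo2, 1 of Tal1 and 1 of Lyl1. In the other direction, all 8 HSC and 0 of 4 GMP libraries called 2 regions, Erg -59 bp and Lmo2 -64.0 kb (Fisher's exact p = 0.00202, the smallest that 8 against 4 allows, adjusted p = 0.00901), where 3.12% of all regions were called more often in HSCs. With peaks that cover at least 50% of a region neither of the 2 passed, and with a -log10 q-value of at least 10 Lmo2 -64.0 kb did not.

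When all 12 libraries kept their 27856 strongest peaks, 10 of the 52 regions then tested (19.2%, beside 13.2% of all 58356) were called more often in GMPs, 9 of them among the 28, and 3 (5.77%, beside 9.32%), now with Lmo2 -27.0 kb, in HSCs. The list length and the smaller peak width of GMPs cannot be told apart from the fraction. Those 9 were Erg +43.1 kb, +37.6 kb, +24.6 kb and -5.4 kb, Fli1 +20.6 kb, +2.1 kb and +195 bp and Lmo2 -10.9 kb and -8 bp. The other was Lmo2 -12.9 kb, which was called in 2 of 8 HSC and 4 of 4 GMP libraries and did not pass with the full lists (Fisher's exact test, adjusted p = 0.172). The regions called more often in GMPs lay across the introns of Erg (Erg +74.4 kb, +73.6 kb, +43.1 kb, +24.6 kb and +9.7 kb besides those named above), upstream of it (Erg -25.6 kb), in Fli1 (Fli1 +66.4 kb and +40.5 kb) and in a coding exon of Lmo2 (Lmo2 +5.9 kb). Fli1 +40.5 kb, for example, had 8.39 and 12.5 in young and 10.1 and 11.6 in aged GMPs, and was called in 0 of 8 HSC libraries.

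Against MEPs, 47 of the regions were called in at least 1 library. Of these, 13 (27.7%) were called more often in HSCs, where 21.1% of all 54155 regions tested were. Of the 47, 0 were called more often in MEPs, where 0.909% of all were. At an unadjusted p under 0.05 there were 2 (4.26%, beside 1.58% of all). The 13 regions were Erg +19.9 kb, +6.6 kb and -59 bp, Fli1 -13.6 kb, -39.4 kb and -49.1 kb, Lyl1 -1.4 kb and Lmo2 -51.2 kb, -27.0 kb and -12.0 kb (8 of 8 against 0 of 4, Fisher's exact test, adjusted p = 0.0124) and Tal1 -8.5 kb, -3.7 kb and +3.8 kb (7 of 8 against 0 of 4, adjusted p = 0.046). The 3 Tal1 calls were lost when any library was left out other than the HSC library without the peak, and also with 50% cover and with equal numbers of peaks. With 50% cover 4 of the 13 passed, Erg +6.6 kb, Fli1 -13.6 kb, Lyl1 -1.4 kb and Lmo2 -27.0 kb, and the others were lost. With a -log10 q-value of at least 10, 10 of the 30 regions then tested passed (33.3%, beside 21.9% of all). These were the 13 without Fli1 -39.4 kb, Lmo2 -51.2 kb and Tal1 +3.8 kb. When all 12 libraries kept their 9581 strongest peaks, Fli1 -13.6 kb alone was called more often in HSCs, and Lmo2 -64.0 kb was called in all MEP and no HSC libraries (adjusted p = 0.0184 for both). Without young MEP replicate 1, Fli1 +64.8 kb and Lmo2 -890 bp were called more often in MEPs (adjusted p = 0.0358).

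Against CLPs, 57 regions were called in at least 1 library, and both directions were present. Erg +19.9 kb, +6.6 kb and -59 bp and Lmo2 -64.0 kb, -51.2 kb and -27.0 kb were called in 8 of 8 HSC and 0 of 4 CLP libraries (Fisher's exact test, adjusted p = 0.0201), which is 10.5% of the regions tested beside 3.87% of all 65080. Erg +74.4 kb and +53.5 kb, Fli1 +40.5 kb, +2.1 kb, +195 bp and -73.3 kb and Lmo2 -8 bp were called in all 4 CLP and 0 of 8 HSC libraries (adjusted p = 0.0201), which is 12.3% beside 6.18% of all. For Tal1 -3.7 kb, called in 7 HSC and 0 CLP libraries, the adjusted p was 0.0773. The calls rest on all 4 CLP libraries, since leaving out any 1 of them raised the smallest exact p to 0.00606 and left 0 calls in both directions. They also depend on the threshold for a peak: with a -log10 q-value of at least 10 none of the 7 regions called more often in CLPs passed, and of the 6 called more often in HSCs Erg +19.9 kb and +6.6 kb did. The 3 regions that passed in CLPs at this threshold, 2 of Fli1 and Lmo2 -12.9 kb, were others. With 50% cover 2 of the 6 called more often in HSCs, Erg +6.6 kb and Lmo2 -27.0 kb, and 4 of the 7 called more often in CLPs passed. When all 12 libraries kept their 27117 strongest peaks, 8 of the 50 regions then tested (16%, beside 6.76% of all) were called more often in CLPs. All of the 7 were among them. In HSCs there were 6 (12%, beside 4.05%), with Fli1 -13.6 kb and without Lmo2 -51.2 kb.

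Fold enrichment was compared where every library of a fit had a peak. It was taken as log2, centred on the median of each library over the regions tested, and fitted with limma, with Benjamini-Hochberg adjustment over all these regions. Without centring, the median log2 difference from HSCs over all regions was 0.533 in GMPs and -0.684 in MEPs, so the differences below are relative to the typical region.

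Among the 10 regions tested in GMPs and HSCs, 3 (30%) were lower in GMPs and 0 higher. Of all 13884 regions, 51.2% differed, 28.3% being lower and 22.9% higher. Erg +6.6 kb was lower by a log2 difference of -1.08 ± 0.143 (SE, adjusted p = 2.23e-06) and Lyl1 +88 bp by -1.07 ± 0.134 (adjusted p = 1.15e-06). Fli1 -13.6 kb was lower by -0.45 ± 0.106 (adjusted p = 0.00132), which without centring was 0.12 higher (adjusted p = 0.369). Without centring 8 of the 10 were called, 6 of them higher in GMPs, beside 10191 of all 13884 regions called. Erg +6.6 kb and Lyl1 +88 bp were the 2 that were lower under both scalings. With quantile normalization Lmo2 -51.2 kb and Lyl1 -1.4 kb were also called, both higher in GMPs.

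In CLPs, 3 of the 4 regions tested differed from HSCs, beside 24.2% of all 12325 regions, 12.4% being lower and 11.7% higher in CLPs. Lmo2 -12.0 kb was lower by -1.19 ± 0.176 (limma, adjusted p = 2.1e-05) and Lyl1 +88 bp by -0.83 ± 0.132 (adjusted p = 4.87e-05), while Lyl1 -1.4 kb was higher by 0.47 ± 0.146 (adjusted p = 0.0202). The last call was lost without young CLP replicate 1 or aged CLP replicate 2. At Tal1 +504 bp the difference was -0.33 ± 0.142 (adjusted p = 0.0914).

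In MEPs, 2 regions could be tested, and neither passed, beside 32.9% of all 5547 regions. Lmo2 -64.0 kb differed from HSCs by 0.38 ± 0.15 (adjusted p = 0.0524) and Tal1 +504 bp by 0.12 ± 0.128 (adjusted p = 0.496). Without centring both were lower in MEPs and passed, beside 4800 of all 5547 regions that passed, so their direction depends on the scaling.

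The MPPs were compared with HSCs at the 8 regions called in all 24 libraries. In MPP1, 0 of the 8 passed, beside 0.0965% of all 13465 regions. At an unadjusted p under 0.05 there were 2 of the 8, beside 1559 of all. Fli1 -39.4 kb had values of 5.73, 5.48, 6.61 and 5.18 in young and 6.53, 5.52, 6.65 and 7.53 in aged HSCs, 7.85 to 11.4 in MPP2 and 8.11 to 9.71 in MPP3, all MPP2 and MPP3 values lying above all HSC values. It was higher by 0.65 ± 0.144 in MPP2 (limma, adjusted p = 0.00576), the only one of the 8, beside 5.09% of all regions, 2.47% of all being higher. In MPP3 it was higher by 0.49 ± 0.144 (adjusted p = 0.0214), again the only one, beside 12.5%, 5.14% being higher. In MPP4 its difference was 0.39 ± 0.144 (adjusted p = 0.0591), and it passed there without centring (0.45, adjusted p = 0.0396). The call in MPP3 was lost without young MPP3 replicate 1 or either aged MPP3 replicate. It was not called in MPP2 or MPP3 when HSC replicates 3 and 4 alone stood for HSCs.

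In MPP4, 2 regions passed, both lower, beside 15.4% of all, 8.44% being lower. Lyl1 +88 bp, with 6.82 to 8.48 in MPP4 and 8.07 to 11.7 in HSCs, differed by -0.45 ± 0.127 (limma, adjusted p = 0.0139), a call that was lost without young or aged MPP4 replicate 2 and when HSC replicates 1 and 2 alone stood for HSCs. Lmo2 -12.0 kb differed by -0.51 ± 0.178 (adjusted p = 0.0465), and did not pass without centring (adjusted p = 0.129), with quantile normalization (adjusted p = 0.0568), with the mean over summits, with either set of HSC replicates alone or when 1 of 16 of the 24 libraries was left out. All other differences of the 8 regions in the MPPs, among them those of Erg +19.9 kb, Tal1 +504 bp and Fli1 -13.6 kb, lay between -0.42 and 0.39 and did not pass.

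**Figure D4:**
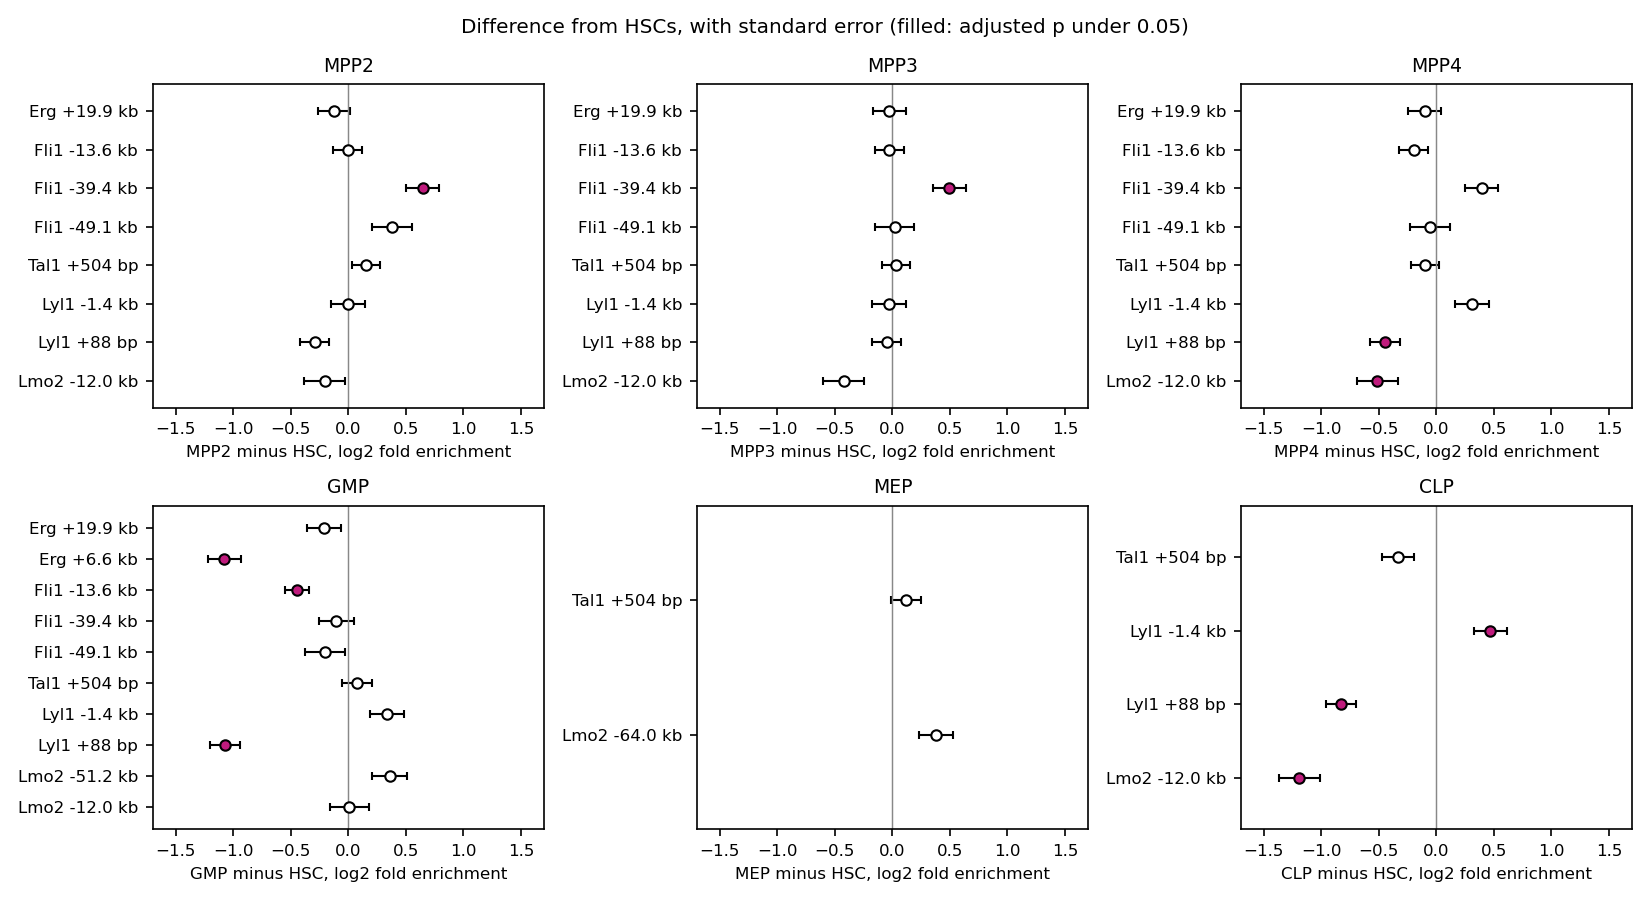
Points are log2 differences of fold enrichment from HSCs, centred on each library's median, with bars of 1 standard error (limma), for the regions called in every library of the fit, and filled points had an adjusted p under 0.05. Fli1 -39.4 kb lies to the right in MPP2 and MPP3, Erg +6.6 kb and Lyl1 +88 bp near -1.1 in GMPs, and Lmo2 -12.0 kb at -1.19 in CLPs.

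No region of the 5 genes passed a test for age. In calls over all fractions, with an exact conditional test that kept the fraction as stratum, 86 regions could be tested and 0 passed after adjustment, as in the whole catalogue (0% of 85292 regions). Without adjustment 0 of the 86 had p under 0.05, beside 1.37% of all. The smallest p was that of Lmo2 -51.2 kb (chr2:103906546-103907101, exact p = 0.0648, adjusted p = 1). All HSC and GMP libraries called it, as did both aged and no young libraries of MPP1 and of MPP2, 1 aged and no young library of MPP4 and 1 library of each age of MPP3.

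In HSCs alone, 4 libraries per age did not allow any region of the catalogue to pass after adjustment, so calls were only described. Of the 5 genes, 0 regions separated the ages fully (4 libraries against 0), beside 0.707% of 51625 regions. The nearest was Fli1 +31.6 kb (intronic, chr9:32509710-32510234), called at 4.36, 4.92, 4.33 and 4.53 in young HSCs and at 3.93 in 1 of 4 aged libraries, replicate 2 (Fisher's exact test, p = 0.143, adjusted p = 1, where 4 against 4 allows 0.0286 at the smallest). In MPPs and GMPs it was called in every library of both ages, at 14.8 to 19 in GMPs. Within replicates 3 and 4, 2 young and 0 aged libraries called it, and within replicates 1 and 2 this held for Fli1 +20.1 kb. Lmo2 -12.9 kb was called in 2 young and 0 aged HSC libraries and in every MPP, GMP and CLP library.

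Fold enrichment at the 13 regions called in all 8 HSC libraries gave 0 regions that passed for age (limma), beside 0.0461% of 17340 regions in all (8 regions). The median log2 difference, aged minus young, was -0.09 over the 13 and 0.005 over all regions. Lmo2 -51.2 kb had the smallest p. Its values were 5.69, 6.12, 6.06 and 5.95 in young HSCs and 6.02, 8.59, 8.94 and 8.86 in aged HSCs, the lowest aged value lying within the young range. The difference was 0.44 ± 0.183 (limma, unadjusted p = 0.0248, adjusted p = 0.46), and it was between 0.39 and 0.58 when any 1 library was left out. It was the only 1 of the 13 with an unadjusted p under 0.05, beside 1602 of all 17340 regions.

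Over HSCs and MPPs together, 0 of 8 regions passed, beside 0.0446% of all. Erg +19.9 kb was lower with age by -0.3 ± 0.0938 (limma, unadjusted p = 0.00268, adjusted p = 0.259). Its values were 10.4, 9.48, 7.7 and 10.1 in young and 6.88, 6.46, 9.5 and 8.02 in aged HSCs, 14.1 and 10.9 against 9.67 and 6.57 in MPP1, 8.6 and 7.85 against 8.12 and 6.81 in MPP2, 10.4 and 9.07 against 7.6 and 7.83 in MPP3, and 11 and 8.08 against 6.65 and 7.65 in MPP4. Young and aged values did not overlap in MPP1, MPP3 and MPP4 and overlapped in HSCs and MPP2. In GMPs they were 8.95 and 10.7 in young and 13.1 and 10.8 in aged cells. Fli1 -39.4 kb was higher with age by 0.24 ± 0.0958 (unadjusted p = 0.0188, adjusted p = 0.397).

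The test of whether the difference with age in HSCs was unlike that in MPPs passed for 0 of the 8 regions and for 0% of all 13465 (limma, 0 of the 8 and 918 of all at an unadjusted p under 0.05). Only regions called in all 24 HSC and MPP libraries entered this test, so regions called at a single age did not. Fli1 -13.6 kb had the smallest p, with 0.3 ± 0.15 (unadjusted p = 0.0521, adjusted p = 0.741). Its values were 18.9, 14.8, 15.4 and 12 in young and 17.6, 18.8, 16.3 and 15.4 in aged HSCs, and these overlapped.

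**Figure D5:**
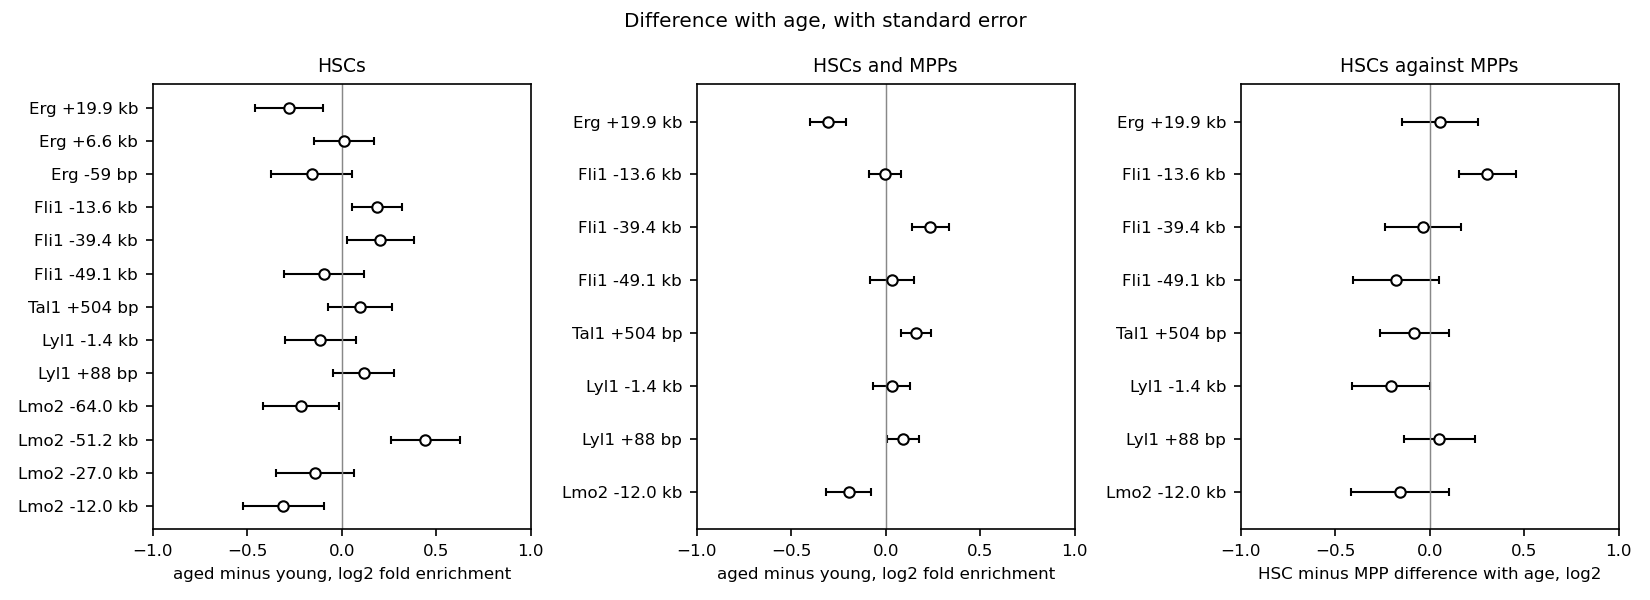
Points are log2 differences of fold enrichment with age and bars are 1 standard error (limma, centred on each library's median), for the 13 regions called in all 8 HSC libraries, for the 8 regions called in all 24 HSC and MPP libraries, and for the difference between HSCs and MPPs at these 8. None had an adjusted p under 0.05, and Lmo2 -51.2 kb (0.44) and Erg +19.9 kb (-0.3) lie farthest from 0 in the first 2 panels.

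The partners of the 5 proteins were examined in the same way. Gata2, Runx1, Gata1, Ldb1, Ssbp2, Ssbp3, Tcf3, Tcf12 and Cbfa2t3, which encode GATA and RUNX factors, LDB1 and its SSBP cofactors, E proteins and the corepressor ETO2, had 167 regions. Of the 140 tested against GMPs, 38 (27.1%) were called more often in GMPs and 3 (2.14%) more often in HSCs, beside the 22.8% and 3.12% of all regions given above. Of the 76 tested against MEPs, 17 (22.4%, beside 21.1% of all) were called more often in HSCs and 0 in MEPs. At an unadjusted p under 0.05, 3 were called more often in MEPs (3.95%, beside 1.58% of all). Of the 92 tested against CLPs, 3 (3.26%, beside 3.87%) were called more often in HSCs and 8 (8.7%, beside 6.18%) in CLPs. The other ETS genes Ets1, Ets2, Elf1, Etv6 and Gabpa had 114 regions, of which 30 of 100 were called more often in GMPs and 5 in HSCs, 14 of 53 (26.4%) more often in HSCs than in MEPs and 0 the other way (0 also unadjusted), and 2 (2.86%) and 7 (10%) of 70 more often in HSCs and in CLPs, beside the same shares of all regions. For age, 0 of 137 and 0 of 92 regions passed in calls (1 and 2 at an unadjusted p under 0.05, all called in fewer aged libraries), and 0 of 20 and 0 of 18 in fold enrichment in HSCs (limma, 0 also unadjusted). A library called on average 3.63 of the 11 Gata2 regions in HSCs, 5.75 in GMPs and 0.25 in MEPs, and 12.6 of the 62 Runx1 regions in HSCs, 37.3 in GMPs and 5 in MEPs.

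Among 7261 genes with 5 or more regions, those whose number of called regions ran most alike to a member over the 36 libraries were Rps6ka1 for Erg (r = 0.978, with Map3k20 and Runx2 next), Eya1 for Fli1 (r = 0.932, with Lyn and Nos1ap next), Cpeb2 for Tal1 (r = 0.909, with Ntn4 and Sugct next), S100a11 for Lyl1 (r = 0.95, with Abca1 and Ywhaz next) and Chmp4b for Lmo2 (r = 0.961, with Spink2 and Znrf1 next). These correlations share the length of each library's list, with which the 5 genes themselves correlated at 0.87 for Tal1 to 0.928 for Lyl1, and describe the 36 libraries only.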

How the data were processed

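ATAC-seq was performed by the authors on 36 libraries of sorted mouse bone marrow cells. Per the study's methods and the submitters' processing notes, reads were placed on mm10 by Bowtie2, handled with SAMtools and brought to equal numbers by subsampling, and MACS2 2.2.6 called peaks in each library. The lists deposited by the authors hold, per summit, a fold enrichment (a ratio to local background), a -log10 p-value, a -log10 q-value and a score, of which the p-value and the score were not used. They hold no read counts, so no count model was fitted, and the lists differ in their number of peaks although the reads were brought to equal numbers.

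Peaks of all libraries that overlapped by 1 bp or more were merged, and a region was given to the nearest protein-coding start site of GENCODE vM21. A library calls a region if it has a peak there, and its value is the highest fold enrichment of these peaks. Calls were compared with Fisher's exact test or an exact conditional test (Python 3.11.15, scipy 1.17.1, numpy 2.4.6, pandas 2.3.3). Fold enrichment, as log2 centred on the library median, was compared with limma 3.58.1 in R 4.3.3 at regions called in every library of the fit, and the threshold was an adjusted p of 0.05. Sequences were read with pysam 0.24.0, figures were drawn with matplotlib 3.10.9, and the scripts were tested on simulated data.

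Of each gene the text names the region nearest a start site, the 3 regions with the highest median fold enrichment among those called in all HSC libraries, regions past the threshold in calls (4 per gene and direction by the rule, all of them here, the others having been added after their values were seen), the smallest p of each age test, and regions of 1 fraction, those of GMPs called in under 4 libraries mostly as counts. The 5 genes, the partner and marker lists (HSC: Hlf, Mecom, Procr; GMP: Mpo, Elane, Cebpe; MEP: Klf1, Epor, Gata1; CLP: Il7r, Dntt, Ebf1) and the tests were chosen with earlier results of these data known. The alternatives were a -log10 q-value of at least 10, peaks that cover at least 50% of a region, equal numbers of peaks, other scalings, the mean over summits, other start sites, a replicate block, sets of HSC replicates and leaving out each library.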

Additional observations from a re-analysis of the deposited data

Results flagged for a closer look

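In HSCs, where each age has 4 libraries, 36 groups of values were examined for a library whose gap to the nearest other exceeds Dixon's critical value, which chance passes in about 1 of 20 groups, and 5 passed. Young HSC replicate 2 called 5 Erg regions where the other young HSC libraries called 4 each. Young HSC replicate 4 called 5 Lmo2 regions where the others called 6 each. In both of these groups of counts the other libraries were tied, so a difference of any size passes and the rate above does not apply. At Fli1 -49.1 kb, young HSC replicate 2 had a fold enrichment of 12.8, and the others had 9.22, 8.95 and 9.44. At Lmo2 -64.0 kb, young HSC replicate 4 had a fold enrichment of 5.35, and the others had 10.5, 10.1 and 9.77. At Lmo2 -51.2 kb, aged HSC replicate 1 had a fold enrichment of 6.02, within the range of the young libraries, and the others had 8.59, 8.94 and 8.86.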

How the results depend on the processing

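The number of regions of the 5 genes called per library moved with the threshold on a peak. With a -log10 q-value of at least 10, GMPs called 50, MPP2 20.5, MPP1 and MPP3 20 each, MPP4 18.2, CLPs 16.5, HSCs 16 and MEPs 2. With peaks that cover at least 50% of a region, GMPs called 55, MPP1 22.2, CLPs 21.8, MPP3 21, MPP2 and MPP4 19.5 each, HSCs 18.5 and MEPs 3.5. With 9581 peaks in every library, GMPs called 7.75, MPP1 6.5, HSCs and MPP2 6.25 each, MEPs 5, MPP4 4.25, MPP3 4 and CLPs 2.75. With any 1 library left out, GMPs called 62.3 to 64.7, MPP2 27 to 30.3, MPP1 26.3 to 29.7, CLPs 25.7 to 28, MPP3 25.3 to 29.7, MPP4 23.7 to 26.7, HSCs 23.3 to 25 and MEPs 5 to 6.67. Start sites of all genes, in place of protein-coding ones, gave 60 regions to the 5 genes in place of 108, namely 26 in place of 33 to Erg, 7 in place of 33 to Fli1, 8 in place of 9 to Tal1, 2 in place of 4 to Lyl1 and 17 in place of 29 to Lmo2, so that the counts of Fli1 depend most on this choice.

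For age, calls over all fractions gave 0 regions under every alternative run, and calls in HSCs gave 1 within replicates 1 and 2 and 1 within replicates 3 and 4 (where 2 against 2 allows an exact p of 0.333 at the smallest), and 0 to 1 when 1 library was left out, the 1 being Fli1 +31.6 kb without aged HSC replicate 2. The 3 tests of age in fold enrichment gave 0 when any 1 library was left out. The replicate numbers did not pair young and aged HSCs, whose same-numbered libraries correlated at -0.079 to 0.179, and with a replicate block 0 of the regions passed in HSCs, with 11 regions in all in place of 8, and 0 in HSCs and MPPs.

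Regions called more often in HSCs than in GMPs were 1 with the stricter q-value (Erg -59 bp, 1.45% of those tested beside 2.75% of all). With 50% cover there was 1 (Lmo2 -27.0 kb, not among the 2, 1.14% beside 3.7%), and with a library left out 2 to 2. Those called more often in GMPs were 10 with equal numbers of peaks (19.2% beside 13.2%), 9 of them among the 28. There were 21 with the stricter q-value (30.4% beside 26%, 17 of the 28) and 26 with 50% cover (29.5% beside 21.3%, 23 of the 28). With a library left out there were 27 to 30. Against MEPs, HSCs had 10 with the stricter q-value (33.3% beside 21.9%, all among the 13). There were 5 with 50% cover (11.1% beside 9.21%, 4 of the 13), 1 with equal numbers (5.56% beside 6.36%) and 10 to 11 with a library left out. MEPs had 1 with equal numbers (5.56% beside 4.61%) and 0 to 2 with a library left out (2 without young MEP replicate 1). Against CLPs, regions more often called in HSCs were 3 with the stricter q-value (7.14% beside 3.79%, 2 of the 6) and 3 with 50% cover (5.45% beside 2.52%, 2 of the 6). Those more often called in CLPs were 3 with the stricter q-value (7.14% beside 5.74%, 0 of the 7) and 6 with 50% cover (10.9% beside 5.76%, 4 of the 7). With equal numbers of peaks there were 6 in HSCs (12% beside 4.05%) and 8 in CLPs (16% beside 6.76%, all of the 7 among them). With a library left out there were 0 to 7 in HSCs and 0 to 8 in CLPs, with 0 in both when any CLP library was left out. With HSC replicates 1 and 2 only, or 3 and 4 only, a split chosen for these comparisons after seeing the data, the number was 0 in each direction against GMPs, MEPs and CLPs, as 4 against 4 does not reach the threshold over all regions (smallest exact p 0.0286).

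In fold enrichment, MPP2 had 0 regions at the stricter q-value and 0 against HSC replicates 3 and 4, and 1 to 1 with a library left out. MPP3 had 0 and 0 in the same settings and 0 to 2, with 2 without aged HSC replicate 4. MPP4 had 1 with quantile normalization, 1 with the mean over summits, 1 with the stricter q-value, 1 against HSC replicates 1 and 2 (Fli1 -39.4 kb), 1 against replicates 3 and 4 (Lyl1 +88 bp) and 0 to 3, with 0 without young or aged MPP4 replicate 2. GMPs had 8 without centring (beside 10191 of all 13884 regions), 5 with quantile normalization, 5 with the mean over summits, 5 against HSC replicates 1 and 2 and 3 to 4 with a library left out. Fli1 -13.6 kb, lower in GMPs, was 0.12 higher without centring, where the typical region was higher too. MEPs had 2 without centring (beside 4800 of all 5547 regions), 1 against HSC replicates 3 and 4 (Lmo2 -64.0 kb) and 0 to 1 (1 without young HSC replicate 1 or 3 or aged HSC replicate 2), and no region could be tested at the stricter q-value. CLPs had 2 to 3. Except where a setting tests fewer regions or libraries, the cause of these changes was not tested.

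Peak lists limit these results. A region without a peak may be open below the threshold of the caller, so that a call says nothing of closed chromatin, and fold enrichment could be compared at 2 to 13 regions per fit. The number of peaks per library differs between fractions, and 4 libraries per fraction leave few attainable p-values.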
